A study of Sus scrofa with 32 samples.

Results

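High and Low AS testes were compared within sows, among 22 of the 32 crossbred male pigs whose testis messenger RNA was sequenced. Every pig was a Danish cross of Duroc with Landrace and Yorkshire, and slaughter was at about 100 kg. AS is the label for androstenone and skatole, and High_AS and Low_AS are the submitters' group names. The 22 pigs are the offspring of the 7 sows, of 14 in all, that had at least 1 pig in each AS group. Of the other 10 pigs, 9 came from sows with pigs in 1 AS group only and 1 had no AS group. The 11 High AS pigs comprised 6 fed the control diet and 5 fed chicory, and the 11 Low AS pigs comprised 5 and 6, where chicory means a feed with 15% of that root for the last 3 days of life. Each sow had 2 to 5 of these pigs. The labels name the sow and not the litter, so pigs of a sow share a dam, and in 6 of the 7 sows they also share a single sire breeding value for androstenone. Single litters are not described, and results are estimates of a fit with sow as a block or means over the 7 sows, for the main genes with the number of sows that had the sign.

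Androstenone is a 16-androstene steroid made by the Leydig cells of the boar testis and stored in fat, where it contributes to boar taint. CYP11A1 cuts cholesterol to pregnenolone, CYP17A1 with its helper cytochrome b5 (CYB5A) turns pregnenolone toward 16-androstenes, and 5-alpha-reductases such as SRD5A1 act at a later step. Luteinizing hormone drives these cells through its receptor LHCGR. Skatole is made by gut bacteria from tryptophan and cleared mainly by liver enzymes.

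The depth in genes was 1855174 to 20349500 counts (median 4165437). By their names 7 libraries were numbered, with at least 10585625 counts each, and 15 were plain, with at most 5993637. High AS pigs had 5 of the 7 numbered libraries, so this division, called library set here, was a term of the model together with diet. The label of testis held against its markers: the 20 measured markers of elongating spermatids summed to 4584 to 53472 CPM (counts scaled to library size with TMM, edgeR's normalization) per pig, and the 10 measured Leydig cell markers, of which 9 were tested, to 901 to 8197 CPM. The lowest elongating spermatid sum belonged to Low AS chicory replicate 1. In that library the mean log2 CPM of the elongating spermatid markers was 7.21, against 8.90 to 10.42 in 20 other libraries, and that of the Sertoli cell markers was 7.18, against 5.25 to 6.33. High AS control replicate 3 had the highest mean level of xenobiotic enzyme genes, 5.26 against 4.12 to 5.09. Cell type list results that rest on these 2 libraries are given with and without them.

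Androstenone differed between the AS groups within sows, by amounts that varied widely from sow to sow. Androstenone was 1.11, 1.8 and 7.77 mg/kg at its lowest, median and highest in the 11 High AS pigs and 0, 0.64 and 1.07 mg/kg in the 11 Low AS pigs. The groups did not overlap, but the lowest High AS value lay close to the highest Low AS value. The High minus Low difference averaged 1.66 mg/kg ± 1.54 (SD, 7 sows) and was above 0 in all 7 sows, from 0.33 to 4.69 mg/kg. Androstenone enters the label of the groups, and its difference was not tested. Skatole was given for 6 of the 22 pigs and was not compared.

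Within sows, the mean carcass weight was also higher in High AS pigs. Their carcasses weighed 82.1, 92.6 and 101.9 kg (lowest, median, highest of 9 pigs with a value), against 76.2, 88.6 and 96.1 kg in 11 Low AS pigs, and the ranges overlapped widely. The within-sow difference was 5.33 kg ± 3.33 (SD) and was above 0 in 6 of 6 sows with a weight in both groups (exact two-sided sign-flip permutation test, p = 0.03125, the smallest that 6 sows allow; adjusted p = 0.0781 over 5 tests). The percentage of reads that fell in no annotated gene was lower in High AS pigs in 7 of 7 sows, by a mean of 2.06 percentage points (difference -2.06 ± 1.62, SD; exact permutation p = 0.0156, the smallest possible; adjusted p = 0.0781). The depth in genes was higher in High AS pigs in 5 of 7 sows, by 0.51 on the log2 scale, and 472 more genes were detected on average (exact permutation p = 0.141 and p = 0.109). Neither measure passed, and the part that carcass weight and library quality have in the values below was not tested beyond the fits named there.

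No gene passed the test for a difference between High and Low AS testes within sows. Of 11846 genes tested, 0 passed at an adjusted p of 0.05 (0%) in edgeR's quasi-likelihood test with sow as a block and diet and library set as terms, and the smallest Benjamini-Hochberg adjusted p was 0.964. Without adjustment 288 genes (2.43%) had p below 0.05, of which 95 (0.802%) were higher and 193 (1.63%) lower in High AS. With no effect in any gene, a share of 0.05 would fall below 0.05 on average, which is more than was seen. DESeq2, limma voom and limma on the 7 differences also called 0 genes, with 370, 307 and 154 at an unadjusted p below 0.05. The median estimate over all genes was 0.02 on the log2 scale, its median standard error (SE) was 0.20, and 54.7% of the estimates were above 0. On counts simulated from these libraries, with 200 randomly drawn genes changed at once, the same fit recovered 70% of genes changed by 1 on the log2 scale and 100% of those changed by 2. These rates are averages over genes of any SE, and a case with few changed genes was not simulated. Smaller changes were not simulated.

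The 7 within-sow differences of a gene rarely pointed one way. A gene was higher in High AS in all 7 sows in 27 cases (0.228%) and lower in all 7 in 44 cases (0.371%), 71 together (0.599%). Independent signs with even odds would agree in all 7 sows in a share of 0.0156 of the genes, which is more than was seen. Agreement of all 7 sows is thus a description of a gene and no evidence of a difference. At least 6 of 7 sows were higher for 430 genes (3.63%) and lower for 533 genes (4.5%). The commonest outcomes were 3 and 4 sows higher, for 3638 and 3607 genes. The median gene had an SD of 0.53 over its 7 log2 differences, and 2294 genes had opposite signs in the blocked fit and in the plain mean of the 7 differences. The plain mean gives each sow the same weight and holds no diet or library set term. It was above 0 for 55.3% of the genes. Diet was balanced between High and Low AS pigs in 0 of the 7 sows, so counts of sows mix diet with AS group.

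PCOLCE2, an enhancer of procollagen processing, had the largest mean among genes with a symbol that were higher in all 7 sows. Its levels were 1.51, 3.66 and 10.3 CPM in High AS pigs and 0.358, 2.33 and 5.74 CPM in Low AS pigs. The mean log2 level was higher in the High AS pigs of every sow, in 1 sow by only 0.07, although the pooled ranges overlapped. The mean difference was 1.11 ± 0.76 (SD, 7 sows), and the blocked estimate was 1.18 (SE 0.31; edgeR's quasi-likelihood test, adjusted p = 0.964). PDE6C, a phosphodiesterase known from cone photoreceptors, had a mean difference of 0.93 ± 1.29, but its median difference was 0.22 and its highest 3.59. TSPEAR (0.72 ± 0.55), PKLR, the liver and red cell pyruvate kinase (0.54 ± 0.55), and MAPDA, an adenosine deaminase-like enzyme (0.43 ± 0.24), completed the 5 largest means of genes with a symbol. PKLR, TSPEAR and PCOLCE2 sat at a few CPM, so few reads stood behind them in the shallowest libraries. The same limit holds for other genes at a few CPM below, among them MT3, LMOD2, PACC1, TSPO and LHCGR.

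On the lower side, MT3, a metallothionein, had the largest mean among genes with a symbol that were lower in all 7 sows. Its levels were 1.11, 2.44 and 5.95 CPM in High AS pigs and 2.07, 3.98 and 11.8 CPM in Low AS pigs, with wide overlap, and the mean difference was -0.83 ± 0.79. LMOD2, a leiomodin that lengthens actin filaments in muscle, was at 2.16, 3.16 and 5.42 CPM against 1.78, 5.19 and 13.8 CPM. Its 7 differences lay between -1.14 and -0.31 with a mean of -0.68 ± 0.28. That SD was below that of the median gene, but picking genes with the same sign in all 7 sows favours a small SD. RASSF4 (-0.61 ± 0.82), UQCR11, a small subunit of respiratory complex III (-0.57 ± 0.40), and LRRC39, a muscle protein (-0.51 ± 0.47), followed. None of these 10 genes passed the test over all genes.

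Ranked by the blocked fit, the 10 symbol-bearing genes with the smallest p and a higher estimate were PCOLCE2, CYP4B1, GUSB, CEP97, TSPEAR, GPD1L, SCNN1G, RARB, MAPDA and CDHR2, with estimates from 0.50 (GPD1L) to 1.18 (PCOLCE2). CYP4B1, a cytochrome P450 of fatty acid and drug metabolism, was at 7.5, 25.0 and 57.7 CPM in High AS pigs and 2.17, 16.1 and 29.6 CPM in Low AS pigs. Its estimate was 0.88 (SE 0.24) and 5 of 7 sows were higher, with the remaining sows close to 0. GUSB, the lysosomal beta-glucuronidase, had an estimate of 0.64 (SE 0.18) and RARB, a retinoic acid receptor, 0.57 (SE 0.20), each with 5 of 7 sows higher. SCNN1G, a sodium channel subunit, had 0.92 (SE 0.31) with 6 of 7 sows higher, at 1.21, 2.73 and 12.3 CPM in High AS and 0, 2.88 and 4.87 CPM in Low AS pigs, where the Low AS median was the higher of the pair.

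The 10 with the smallest p and a lower estimate were LMOD2, PRKCE, RUBCNL, ETV6, EPHA7, PACC1, ENO2, COL13A1, IL11RA and WIPF3, from -0.39 (IL11RA) to -1.08 (PRKCE). PRKCE, a protein kinase C, was lower in 5 of 7 sows and ENO2, the neuronal enolase, in only 4 of 7. EPHA7, an ephrin receptor, was at 1.29, 3.64 and 8.07 CPM in High AS pigs and 2.99, 6.31 and 12.2 CPM in Low AS pigs. It was lower in 6 of 7 sows, with an estimate of -0.93 (SE 0.30). PACC1, a proton-activated chloride channel, was at 1.83, 2.51 and 3.59 CPM against 1.43, 5.18 and 15.3 CPM, with an estimate of -0.81 (SE 0.26). The High AS pigs were tightly grouped at the low end of the PACC1 range, and the Low AS pigs spanned it.

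**Figure D1:**
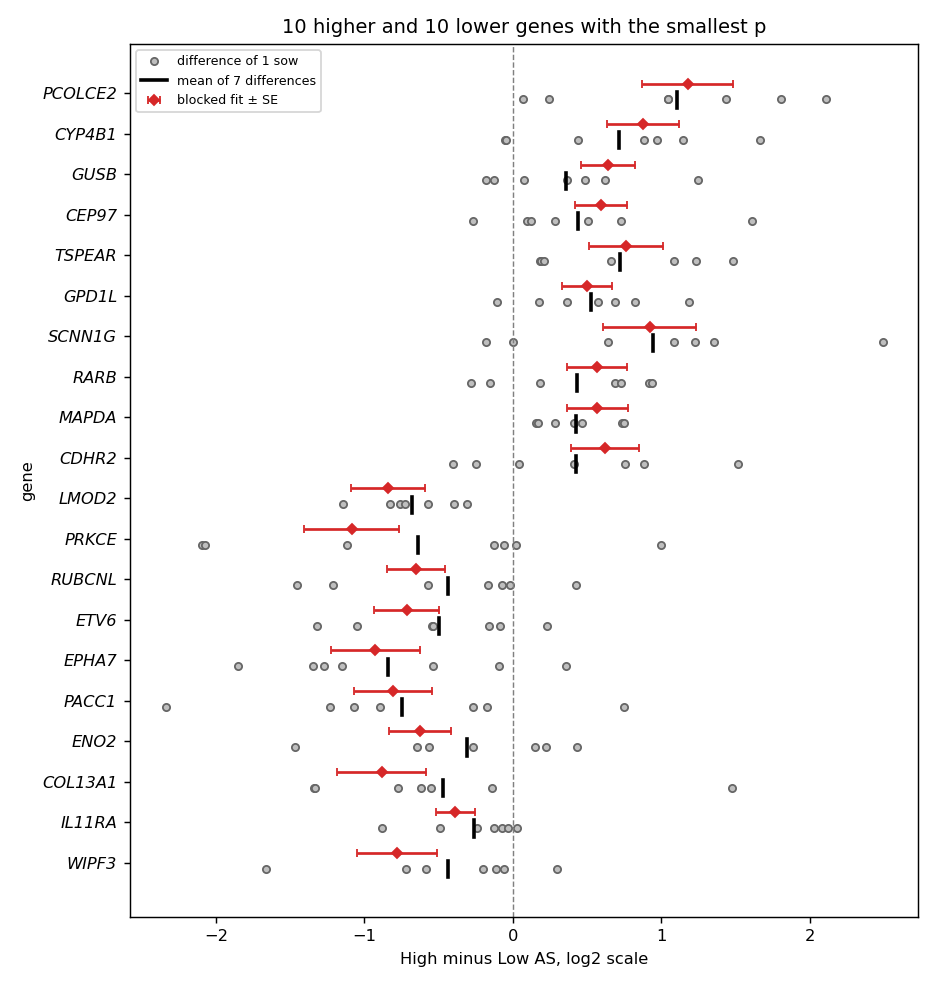
Each row is a gene, the x axis is the High minus Low AS difference on the log2 scale, grey points are the 7 sows, the black bar is their mean and the red diamond is the estimate of the blocked fit ± SE. PCOLCE2, TSPEAR and MAPDA have all 7 points above 0 and LMOD2 has all 7 below, while most other genes have at least 1 sow on the far side of 0.

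Genes of the steroid pathway did not share a sign within sows, and none passed the test. Of the 15 genes listed for steroidogenesis 8 were tested, 5 had a higher estimate (54.7% of all genes did), 0 were called, and the median estimate was 0.21 against 0.02 for all genes. CYP11A1, which opens the pathway, was at 54.2, 178 and 299 CPM in High AS pigs and 40.4, 124 and 510 CPM in Low AS pigs. Its estimate was 0.48 (SE 0.31), with 4 of 7 sows higher and a mean difference of 0.36 ± 0.76. FDXR, the reductase that feeds electrons to CYP11A1, had an estimate of -0.03 (SE 0.20) with 4 of 7 sows higher.

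CYP17A1 was at 298, 956 and 1952 CPM in High AS pigs and 88.1, 778 and 2771 CPM in Low AS pigs. The highest value of all belonged to a Low AS pig. The estimate was 0.73 (SE 0.37), but the sows split 4 to 3 with differences from -0.85 to 1.80. CYB5A, its helper, was at 629, 1095 and 1376 CPM in High AS pigs and 466, 782 and 2125 CPM in Low AS pigs, with an estimate of 0.26 (SE 0.18) and 6 of 7 sows higher. CYB5R3, a cytochrome b5 reductase, had 0.15 (SE 0.15) and 5 of 7 sows higher.

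SRD5A1 was at 32.3, 61.5 and 158 CPM in High AS pigs and 21.2, 48.5 and 87.8 CPM in Low AS pigs. It was higher in 6 of 7 sows, with a mean difference of 0.44 ± 0.53 and an estimate of 0.53 (SE 0.26). HSD17B3, which makes testosterone, leaned the other way at 39.3, 64.7 and 132 CPM against 37.1, 121 and 240 CPM, with an estimate of -0.25 (SE 0.21) and 5 of 7 sows lower. TSPO, an outer mitochondrial membrane protein, was at 1.22 to 4.22 CPM in High AS and 2.17 to 4.99 CPM in Low AS pigs, with an estimate of -0.46 (SE 0.27).

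The other Leydig cell genes gave the same picture of overlap. INSL3, a peptide hormone of Leydig cells, was at 210, 929 and 2387 CPM in High AS pigs and 68.2, 758 and 2588 CPM in Low AS pigs, with an estimate of 0.81 (SE 0.32) and a 4 to 3 split of the sows. LHCGR was at 1.12, 3.67 and 8.70 CPM against 0.259, 1.92 and 18.2 CPM, with an estimate of 1.08 (SE 0.47) and 6 of 7 sows higher. Few reads stood behind LHCGR in the shallowest libraries. VCAM1, an adhesion molecule on the Leydig marker list, was at 8.73, 19.1 and 40.3 CPM against 5.14, 14.0 and 26.4 CPM. Its estimate was 0.81 (SE 0.30) with 6 of 7 sows higher, and the highest difference was 2.76 against a median of 0.63. NR5A1, a regulator of steroid genes, had -0.25 (SE 0.27), and FTL, the ferritin light chain, 0.23 (SE 0.18) with 5 of 7 sows higher. In bulk testis, fewer cells of a type and less RNA per cell cannot be told apart.

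**Figure D2:**
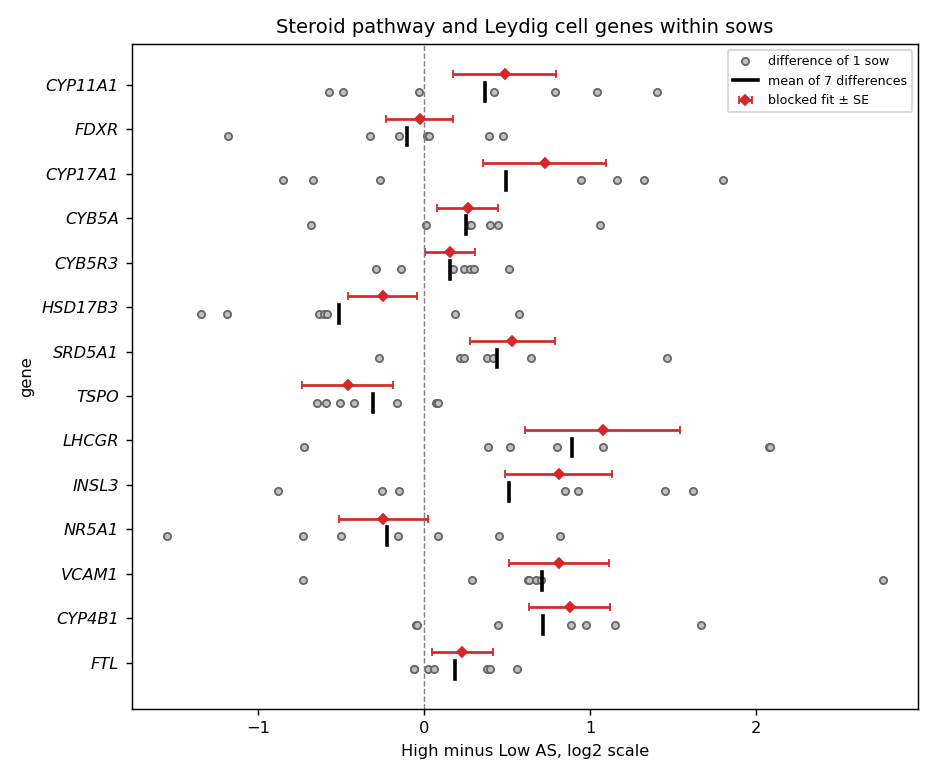
Each row is a steroid pathway or Leydig cell gene, plotted as High minus Low AS on the log2 scale with grey points for the 7 sows, black bars for their means and red diamonds for the blocked estimates ± SE. CYP17A1 and INSL3 have 4 sows well above and 3 below 0, whereas SRD5A1, LHCGR, CYB5A and VCAM1 have 6 of 7 above.

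These estimates moved with the terms of the model. In the 20 pigs with a carcass weight, CYP17A1 had 0.68 (SE 0.43) without weight in the model and 0.03 (SE 0.48) with it. SRD5A1 went from 0.54 to -0.00057 (SE 0.31) and CYP11A1 from 0.37 to -0.19 (SE 0.38), while INSL3 went from 0.80 to 0.34 (SE 0.48). With weight in the model 2 of the 8 steroidogenesis genes had a higher estimate (median -0.14), against 5 of 8 in the same pigs without it. LHCGR went from 0.90 to 0.70 (SE 0.65), VCAM1 from 0.80 to 0.51 (SE 0.45) and CYP4B1 from 0.81 to 0.41 (SE 0.33). Since the mean weight was higher in High AS pigs in 6 of 6 sows, AS group and carcass weight cannot be fully told apart in these pigs.

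Estimates of the same genes also varied with library set. Without that term CYP17A1 had 0.35 (SE 0.38) and INSL3 0.54 (SE 0.34), and in the 13 pigs of 5 sows with plain libraries only they had 0.17 (SE 0.33) and 0.42 (SE 0.33). SRD5A1 stayed at 0.49 (SE 0.25) and 0.53 (SE 0.26) in these fits, and CYP4B1 at 0.66 (SE 0.27) and 0.80 (SE 0.22). No gene was called in any of them.

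**Figure D3:**
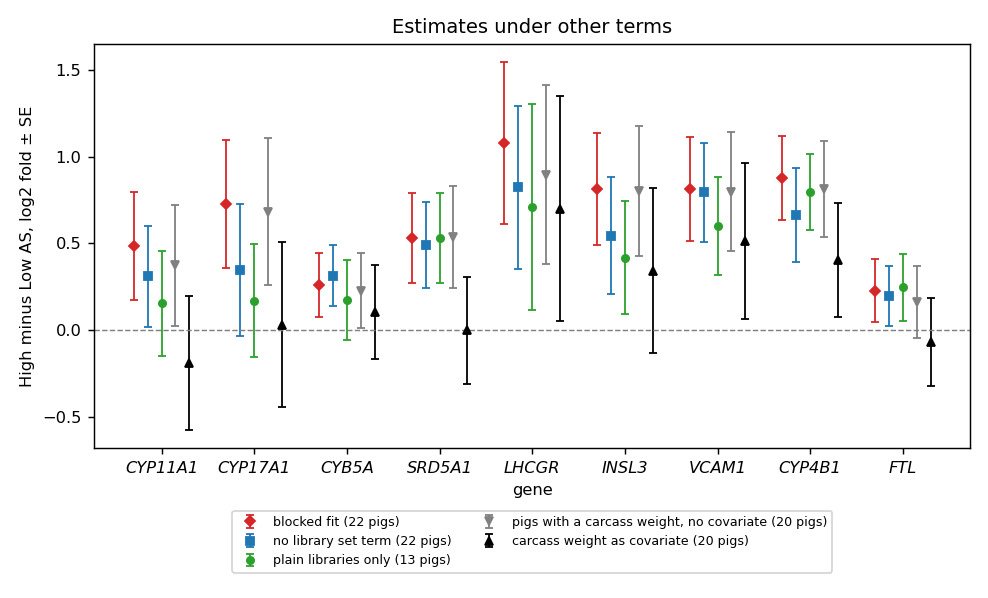
The y axis is the High minus Low AS estimate on the log2 scale ± SE for 9 genes, with 1 symbol per fit: the blocked fit on 22 pigs, the fit without library set, plain libraries only (13 pigs), and the 20 pigs with a carcass weight without and with weight as a covariate. CYP11A1, CYP17A1 and SRD5A1 drop to about 0 or below once carcass weight is in the model, and SRD5A1 stays between 0.49 and 0.54 in the 4 fits without weight.

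Most genes of cholesterol supply had a higher estimate. Of 27 tested genes for cholesterol synthesis, uptake and storage, 25 had a higher estimate with a median of 0.22, and 0 were called. SOAT1, the enzyme that forms storage esters of cholesterol, had 0.37 (SE 0.17) and 6 of 7, and HMGCS1, an early enzyme of the route, 0.31 (SE 0.18) and 6 of 7. The list mean was higher in only 4 of 7 sows, from -0.30 to 0.62, and counted by mean differences 21 of 27 genes were higher. With carcass weight in the model 18 of 27 were higher (median 0.12), against 23 of 27 in the same pigs without it. The median fell to 0.09 without the library set term (22 of 27 higher) and in plain libraries only (19 of 27).

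Regulators of Leydig cells and luteinizing hormone signalling split evenly, with 8 of 15 tested genes higher and a median of 0.03. Beside LHCGR and INSL3, PDE8A, a cyclic AMP phosphodiesterase, had 0.26 (SE 0.13) with 5 of 7 sows higher. NR0B1, a repressor of steroid genes, had -0.42 (SE 0.22) with 1 of 7 higher, and IGF1, a growth factor, -0.65 (SE 0.32) with 3 of 7. Steroid sulfation and conjugation had 2 of 8 higher and a median of -0.02. PAPSS2, which makes the sulfate donor, was at 24.3, 42.4 and 81.9 CPM in High AS pigs and 14.5, 35.2 and 96.6 CPM in Low AS pigs, higher in 6 of 7 sows with an estimate of 0.54 (SE 0.27). SULT1A3, a sulfotransferase with near-identical family members whose reads may be shared, had -0.39 (SE 0.31).

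Other hydroxysteroid dehydrogenases had 7 of 12 higher (median 0.05), led by HSD17B11 at 0.43 (SE 0.28) and opposed by HSDL1 at -0.33 (SE 0.19). Glutathione and antioxidant genes had 17 of 25 higher (median 0.10), but with carcass weight in the model 9 of 25, against 14 of 25 in the same pigs without it. Within that list MGST3, a microsomal glutathione transferase, had -0.44 (SE 0.18) and GSS, glutathione synthetase, -0.32 (SE 0.16), both lower in 6 of 7 sows, whereas GSTO1 had 0.45 (SE 0.23). Iron, ferritin and heme genes had 10 of 16 higher, with TFRC, the transferrin receptor, at 0.49 (SE 0.26) and ACO1, the iron-sensing aconitase, at -0.29 (SE 0.15). Xenobiotic enzymes and receptors had 9 of 16 higher, interferon response and antigen presentation 7 of 15, and heat shock 13 of 19, each with a median within 0.06 of 0. In the 20 pigs with a carcass weight the interferon list had 3 of 15 higher with a median of -0.30, and 4 of 15 with weight in the model. Immediate early genes had 5 of 10 higher, but 8 of 10 without the library set term (median 0.25) and 8 of 10 by the plain mean of the 7 differences (median 0.13).

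The 13 mitochondrially encoded genes all had lower estimates in the blocked fit, with a median of -0.40. All 13 were also lower in 11 of 14 alternatives, among them DESeq2 and plain libraries only, and the median was above 0 in 2. Without the library set term 11 of 13 were higher with a median of 0.25, and by the plain mean of the 7 differences 10 of 13 were higher with a median of 0.17. COX1, a subunit of cytochrome c oxidase, was at 5845, 16201 and 56231 CPM in High AS pigs and 7108, 10431 and 61941 CPM in Low AS pigs, a range that exceeded any difference between the groups. Leaving out the 2 libraries that stand apart gave 1 of 13 higher and a median of -0.11.

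No marker of germ cells or somatic cells was called. Sertoli cell markers had a lower estimate in 8 of 8 tested genes (median -0.23), and the list mean was lower in 6 of 7 sows. INHA, the inhibin alpha subunit, was at 25.4, 48.1 and 96.6 CPM in High AS pigs and 27.5, 67.8 and 217 CPM in Low AS pigs, with an estimate of -0.43 (SE 0.18) and 6 of 7 sows lower. SOX9, a Sertoli cell transcription factor, had -0.49 (SE 0.22) and 5 of 7 lower. Without the 2 libraries 1 of 8 Sertoli markers was higher (median -0.21). With carcass weight in the model 4 of 8 were higher, against 0 of 8 in the same pigs without it. Leydig cell markers had 6 of 9 higher with a median of 0.48, but a list mean higher in 4 of 7 sows. With carcass weight in the model their median was 0.03, against 0.37 in the same pigs without it. Spermatogonial markers had 1 of 6 higher (median -0.24), and 2 of 6 without the 2 libraries (median -0.09). With carcass weight in the model 5 of 6 were higher (median 0.12), against 2 of 6 in the same pigs without it (median -0.19).

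Spermatid markers leaned the other way. All 20 tested markers of elongating spermatids and all 15 of round spermatids had a higher estimate, with medians of 0.29 and 0.27. CAPZA3, a sperm actin-capping protein, was at 683, 866 and 1122 CPM in High AS pigs and 152, 879 and 1254 CPM in Low AS pigs, so the groups differed at the low end while their medians were close. The list mean of elongating spermatids was higher in 3 of 7 sows, with a median difference of -0.05 and a highest difference of 2.03. Without the 2 libraries the elongating list had 17 of 20 higher with a median of 0.10, and the round list 14 of 15 with a median of 0.15. With carcass weight in the model the elongating list had 15 of 20 higher (median 0.19) and the round list 10 of 15 (median 0.05), against 20 of 20 and 14 of 15 in the same pigs without it. Protamine PRM1, which packs sperm DNA, had 0.28 (SE 0.32), and 4 of 7 sows were higher. Spermatocyte markers had 14 of 19 higher (median 0.09) and a list mean higher in 6 of 7 sows, by at most 0.13.

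Peritubular and smooth muscle markers had 1 of 11 higher in the blocked fit (median -0.21), but 9 of 11 without the library set term (median 0.27), and a median of -0.10 without the 2 libraries. Endothelial markers had 3 of 7 higher, and 6 of 7 without that term. Fibroblast and stroma markers had 3 of 11 higher, and 8 of 11 without it. Few macrophage and lymphocyte markers were tested, and 2 of 4 and 2 of 3 were higher. Of the blood markers only HBB was tested, at -0.32 (SE 0.27) with a mean difference of -0.037 and 4 of 7 sows higher, and of the epididymis markers only ADAM7, at 0.26 (SE 0.23). The part of cell composition in the gene values above was not tested.

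**Figure D4:**
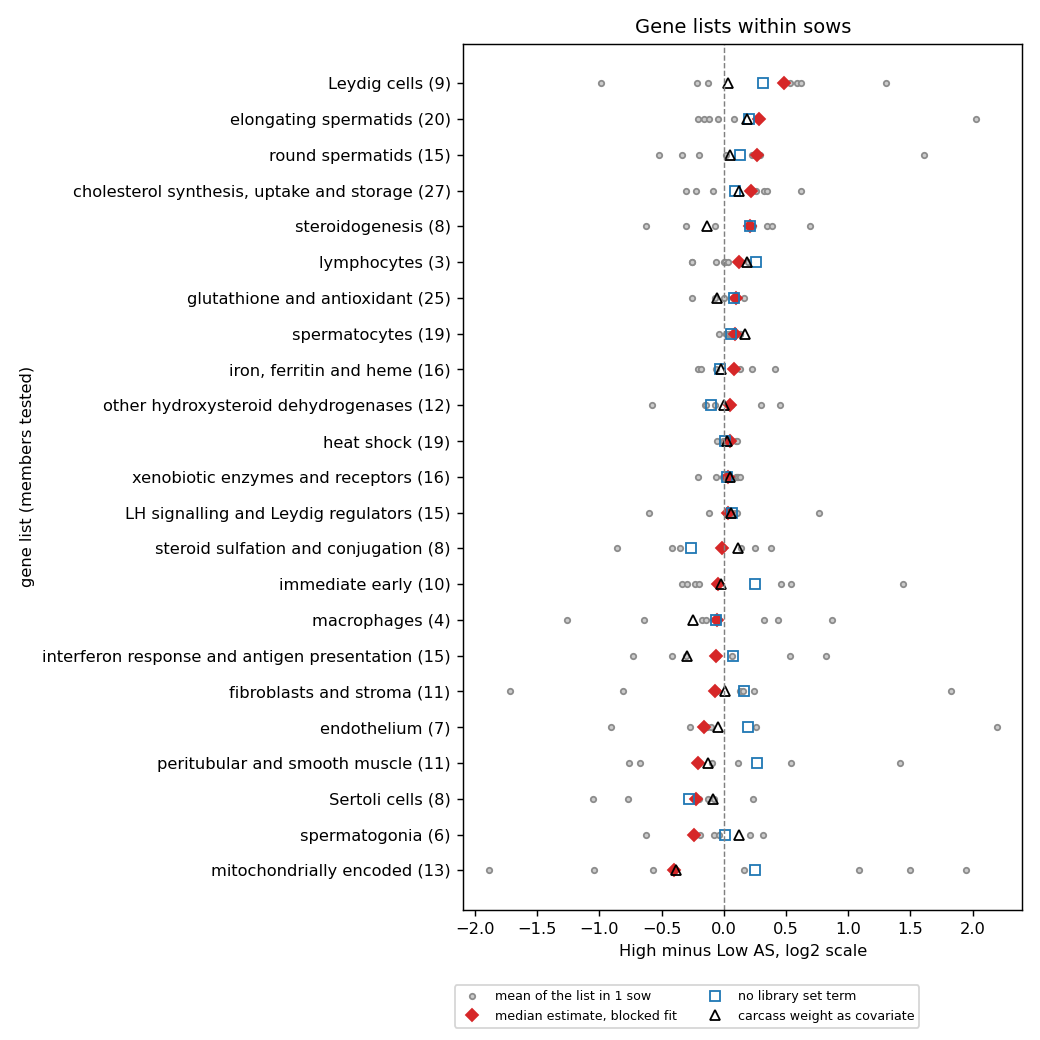
Each row is a gene list with at least 3 tested members, the x axis is High minus Low AS on the log2 scale, grey points are the list mean in each of the 7 sows, red diamonds are the median estimates of the blocked fit, blue squares those without library set and black triangles those with carcass weight as a covariate. The median changes side of 0 between the red diamond and the blue square in 9 of the 23 lists, most widely in the mitochondrial list. The Leydig list has 0.48 at the diamond and 0.03 at the triangle. Triangles rest on the 20 pigs with a carcass weight, in which the Leydig median without weight in the model was 0.37.

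Sows differed in genes where the AS groups did not pass. A test on all sow terms at once called 23 of 11846 genes (0.194%; edgeR's quasi-likelihood test, Benjamini-Hochberg adjusted), and 2068 (17.5%) had an unadjusted p below 0.05. CYP1A2, a cytochrome P450 known in liver for clearing skatole, had the smallest adjusted p, 0.00133. Its sow means ran from 0 to 48.8 CPM with a median of 36.5 CPM. It reached at least 1 CPM in 16 of 22 pigs, in all pigs of 4 sows, in none of 2 sows and in some of 1 sow. Against the floor of 3 counts over the sow at 0 (0.0960 CPM), the highest sow mean was at least 508-fold higher. Its AS estimate within sows was 0.71 (SE 0.43), with 2 of 7 sows higher. The highest CYP1A2 difference was 4.87 against a median of -0.15, and the sow at 0 had no difference.

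RNF181, a ubiquitin ligase, also behaved as present or absent by sow (adjusted p = 0.00278 in edgeR's test). It reached 1 CPM in 12 of 22 pigs, in all pigs of 3 sows, none of 3 and some of 1, and its highest sow mean, 60.6 CPM, was at least 195-fold above the floor of 0.310 CPM in the sow at 0. OPN4, the light receptor melanopsin, had sow means from 0.365 to 14.7 CPM (adjusted p = 0.00525 in edgeR's test) and reached 1 CPM in 15 of 22 pigs. APOE, the lipoprotein ligand, was measured in every pig, with sow means of 14.5, 76.8 and 155 CPM, a 10.7-fold span (adjusted p = 0.00429 in edgeR's test). SAL1, the salivary lipocalin that binds androstenone in boar saliva, had sow means of 8.65, 42.2 and 251 CPM (adjusted p = 0.00798 in edgeR's test), and its AS estimate was 0.45 (SE 0.48) with 3 of 7 sows higher.

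Further named genes that differed between sows were BLVRA, biliverdin reductase (10.4 to 53.8 CPM), ABCB10, a mitochondrial transporter tied to heme synthesis (19.6 to 72.3 CPM), THSD7A (1.40 to 14.4 CPM), INHA (26.4 to 122 CPM), SFXN1, a mitochondrial serine carrier (22.2 to 65.6 CPM), and UPB1, a pyrimidine-degrading enzyme (4.85 CPM to 22 CPM). None of the steroid pathway genes was among the 23, although CYP17A1 sow means ran from 198 to 1663 CPM. Sow, sire, rearing and any slaughter day shared by a sow's pigs cannot be told apart. Without the 2 libraries that stand apart 9 genes were called, 8 of them among the 23, and BLVRA, INHA, SFXN1 and UPB1 missed the threshold (adjusted p = 0.0634, 0.0564, 0.142 and 0.0924 in edgeR's test). CYP1A2, APOE and BLVRA were called in every fit that left out 1 pig or 1 sow, and OPN4 and RNF181 in every such fit that tested them.

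**Figure D5:**
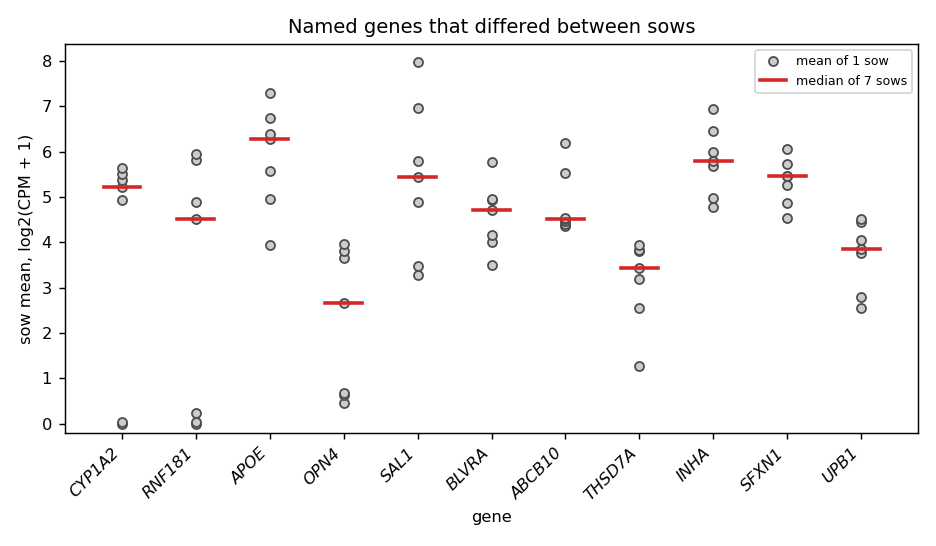
The y axis is the mean level of a sow's pigs as log2(CPM + 1), each grey point is 1 of the 7 sows and the red bar is their median, for the 11 genes named here that differed between sows. CYP1A2, RNF181 and OPN4 split into sows near 0 and sows well above it, while ABCB10 is set apart by 2 high sows.

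The within-sow effect was finally set against the AS effect among the other pigs. Those were 6 High AS pigs of 5 sows and 3 Low AS pigs of 2 sows, and the joint fit used 31 pigs with 1 term for all other sows together. The AS effect among them is thus a difference between sows, 2 of which gave 2 pigs each, and those pigs entered as independent. Of 12076 genes tested 0 (0%) differed in effect in edgeR's quasi-likelihood test with Benjamini-Hochberg adjustment, 334 (2.77%) had an unadjusted p below 0.05, and DESeq2 called 2. ADGRG6, an adhesion receptor, had the smallest unadjusted p, with -0.46 (SE 0.27) within sows and 1.89 (SE 0.51) among the others, a difference of 2.35 (SE 0.56; adjusted p = 0.999 in edgeR's test). KRT32, a keratin, had 0.25 (SE 0.15) and -0.77 (SE 0.22), and ABCB10, which also differed between the 7 sows, had 0.02 (SE 0.22) and -1.38 (SE 0.30). CYP17A1 had 0.77 (SE 0.37) and 0.81 (SE 0.54), with a difference of 0.04 (SE 0.63). INSL3 was 0.81 (SE 0.34) and -0.01 (SE 0.49), a difference of -0.82 (SE 0.58) that also missed the threshold, and CYP4B1 was 0.82 (SE 0.26) and 1.96 (SE 0.46).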

How the data were processed

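The deposited files hold raw counts per gene identifier, 1 per pig, made by the authors with no normalization. Libraries were made with a stranded TruSeq kit, per the labels. The submitters' processing notes list HTSeq 0.6.0 and SAMtools 1.3.1 beside STAR, with cutadapt 1.8.1 and Trimmomatic 0.33 for trimming. Build, annotation, strand setting and STAR version are not given in the sources used here. Genes that overlap or lie antisense to each other may therefore share reads, and neither coordinates nor sequences are printed. The 5 rows of reads given to no gene stayed out (no feature 20.6% to 39.6% of a library, unaligned 6.02% to 10.9%, not unique 5.00% to 6.63%, ambiguous 0.02% to 0.04%, low quality 0.02% to 0.08%). Symbols matched 11804 of 25322 identifiers. STAR, FDX1, HSD3B1, POR, SRD5A3 and CYP19A1 had no identifier under their symbol and were not analysed here.

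Genes were kept by filterByExpr on AS group, scaled by TMM and tested in edgeR 4.0.16 (R 4.3.3, glmQLFit and glmQLFTest) with sow as a fixed block and diet and library set as terms, with Benjamini-Hochberg adjustment at 0.05 over all genes (12 residual degrees of freedom). Sow is the block because pigs of a sow share a dam, per the labels. Residuals of the 26 pairs of pigs from 1 sow correlated at 0.09 on average, and those of 205 pairs of different sows at -0.06, both without the sow term. Differences are mean log2 CPM (prior count 2) per sow and AS group, High minus Low. SE is the log2 fold over the square root of F. Single values were tested by exact two-sided sign flips over sows. Sow terms were tested in the same model. The interaction used 31 pigs, with 7 sow terms and 1 further term for the pigs of all other sows. Alternatives used DESeq2 1.42.0, limma 3.58.1, other filters, terms and prior counts, and fits without each pig or sow. The fit was tested on simulated data. In 50 pairs of libraries of 1 group the smallest chi-square per degree of freedom was 7.59, so no pair agreed within sampling noise.

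Named genes were, by rule, every gene called and, among genes with a symbol, the 10 smallest p in each direction, the 5 largest means with 7 of 7 sows in each direction, steroid pathway genes with LHCGR, INSL3, NR5A1, CYP4B1, VCAM1 and FTL, the 2 smallest p of each other list, and the smallest p of the sow and interaction tests. HMGCS1, PDE8A, NR0B1, IGF1, GSTO1 and PRM1 were added after their values were seen. Some genes that the rule takes are not reported here. Members and lists were chosen with earlier results of these data known.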

Additional observations from a re-analysis of the deposited data

Results flagged for a closer look

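Among 131 sets of within-sow differences, 17 had 1 sow far from the others by Dixon's ratio, the gap to the nearest sow over the whole range. Chance gives about 1 in 20 for sets not picked by their values. Many of the genes here were picked by these same values, so the count cannot be set against that rate. For genes the ratio was 0.590 for VCAM1, 0.594 for ADAM7, 0.574 for COL13A1, 0.571 for PDE6C, 0.580 for INHA, 0.632 for PKLR, 0.825 for RASSF4, 0.842 for CYP1A2, 0.713 for RNF181, 0.593 for THSD7A and 0.677 for ENSSSCG00000030951, an identifier with no symbol. For list means it was 0.620 for round spermatids, 0.783 for elongating spermatids and 0.624 for endothelium. Carcass weight had 0.746, the percentage of reads in no annotated gene 0.599 and the number of genes detected 0.657. The cause was not tested for any of them.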

How the results depend on the processing

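The count of 0 genes called between AS groups held in 14 alternatives and in every fit without 1 pig or 1 sow (0 to 0). With no replicate block it was also 0 of 11846, with 134 genes at an unadjusted p below 0.05 against 288, and the block changed no call. The count between sows was unstable: 23 in the report, 1105 with DESeq2 (likelihood ratio test), 47 with limma voom, 160 with no low-count filter and 9 without the 2 libraries that stand apart. Leaving out 1 pig gave 10 to 1979, and 1 sow 8 to 59. The libraries that moved it by over 1.5 times when absent were, in High AS, control replicate 7 (1979) and chicory replicates 5 (48), 4 (15) and 6 (15). In Low AS they were control replicates 4 (14), 6 (15) and 7 (10) and chicory replicates 1 (15), 2 (15) and 4 (12). The cause was not tested. The test of different effects called 2 genes with DESeq2 and 2 with no low-count filter, and 0 to 0 without 1 pig or sow. Genes with 1 sign in all sows numbered 71, 682 in plain libraries (5 sows to agree instead of 7), and 128 to 329 without 1 sow (6 to agree). Carcass weight differed by 4.02 to 5.83 kg without 1 sow (exact p = 0.0625, the smallest 5 sows allow).

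Of 1113 alternative values of 80 genes named within sows, 17 changed sign. With carcass weight as a covariate these were CYB5R3 -0.15, LUM 0.17, FTL -0.066, MRC1 0.27, SRD5A1 -0.00057, UCHL1 0.13, ID4 0.10 and CYP11A1 -0.19. With no library set term they were LUM 0.18, TPM2 0.36, HSPA5 -0.077, COX1 0.091 and ID4 0.056, and with limma on the 7 differences TPM2 0.090 and HSPA5 -0.042. FDXR was 0.050 when sow was a random effect and 0.013 when lane 7, whose 3 libraries were all High AS, was left out. Fits without 1 pig or sow gave -0.14 to 0.16 for FDXR and -0.48 to 0.023 for MRC1. The fit of the 20 pigs with a carcass weight and no covariate was chosen after seeing the data. Depth limits low genes most: plain libraries held at most 5993637 counts.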
